A study of Mus musculus with 12 samples.

Results

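The genes described here are 31 members of the p53 pathway and its targets, read from arrays of mouse spleen erythroblasts with 4 genotype labels. They were listed by name: p53 itself (Trp53), its partners and feedback regulators, and genes that p53 switches on in cell cycle arrest and stress, DNA repair, and cell death and survival. Each gene was represented by the probe set annotated to its symbol alone, taking the one with the highest mean signal over all arrays where there were several. Of the 31 genes, 29 had such a probe set and 28 passed the filter on low signals, out of 12980 genes tested in all. Trp53 and Gdf15 had no probe set with a single symbol in the annotation used and their expression was not analysed here. Plk2, a polo-like kinase, fell below the filter level of 5.84 on the log2 scale, with values between 5.30 and 6.01 over the 12 arrays, and was not tested.

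The arrays held RNA of spleen cells sorted from 3-month-old mice for Ter119, an erythroid surface marker, and for high CD71, the transferrin receptor. Each of the 4 groups had 3 arrays, which the labels call biological replicates. WT is wild type, E2f8 KO lacks E2f8 by its label, Rb KO lacks Rb, and DKO, the double knockout, lacks both. E2f8 encodes a repressor of the E2F family of transcription factors, and the retinoblastoma protein Rb holds activating E2Fs in check. The sources used here do not name the alleles, any Cre driver, the sex or the strain.

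The p53 protein is a transcription factor that is kept low by constant destruction and becomes stable when DNA is damaged, when replication is stressed or when ribosome assembly fails. It binds pairs of short sequence elements and turns on genes that stop the cell cycle, aid repair or start apoptosis, and it also turns on its own inhibitors, among them Mdm2, which closes a feedback loop. In erythroid precursors, which divide fast while they build haemoglobin, p53 activity is known to limit expansion and is the pathway behind several inherited anaemias. Its activity is set mostly by protein stability and modification, so mRNA levels of targets are a readout of its output and not of p53 itself.

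The erythroblast markers were high in every group, with list means between 12.17 and 13.04 in single arrays (10 genes). Single markers did differ at an adjusted p under 0.05 by limma. Of the 10, 2 rose and 1 fell in E2f8 KO against WT and in DKO against WT. In DKO against Rb KO 5 rose and 1 fell, where 19.5% of all genes tested rose and 17.6% fell. Neither targeted gene followed its label: E2f8 signal was higher by 0.86 ± 0.19 (SE, adjusted p = 0.00728) in arrays labelled E2f8 KO than in WT, and Rb1 was lowest in those same arrays and not in those labelled Rb KO. Where the probe sets lie with respect to the deleted exons is not known here, so these signals do not check the labels, and every group name below is a label. Several marker lists of other spleen cells moved with the E2f8 label, and the macrophage list was lower under the Rb label too. The B cell list (14 genes) averaged 11.12 ± 0.69 (SD, n = 3) in WT and 11.33 ± 1.22 in Rb KO, against 8.06 ± 0.20 in E2f8 KO and 6.85 ± 0.59 in DKO, and all 14 markers fell in E2f8 KO, in DKO against WT and in DKO against Rb KO. Rb KO replicate 1, at 9.92, lay apart from the other Rb KO arrays at 12.06 and 12.02. No B cell marker averaged below the filter level in WT, E2f8 KO or Rb KO, and 3 of 14 did in DKO. Macrophage and T cell lists were also lower under the E2f8 label, whereas the granulocyte list (16 genes) rose from 6.40 ± 0.09 in WT to 8.35 ± 0.23 in E2f8 KO and ranged from 6.84 to 10.22 in DKO. Of 17 granulocyte markers with a probe set, 4 averaged below the filter level in WT and 4 in Rb KO, where a signal gives only a bound. The list of cycling cell genes (12 genes) averaged 11.79 ± 0.28 in WT, 12.56 ± 0.05 in E2f8 KO, 11.87 ± 0.45 in Rb KO and 12.70 ± 0.03 in DKO. On these bulk arrays, fewer cells of a type and less RNA per cell cannot be told apart. Replicate 3 of E2f8 KO and replicate 3 of DKO stood apart from the other 10 arrays in Xist (5.22 and 3.99) and in the Y-linked gene Eif2s3y (8.17 and 7.82). The other arrays lay at 11.30 or above in Xist and at 3.32 or below in Eif2s3y. By these genes both replicates read as male, and no WT or Rb KO array did.

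**Figure D1:**
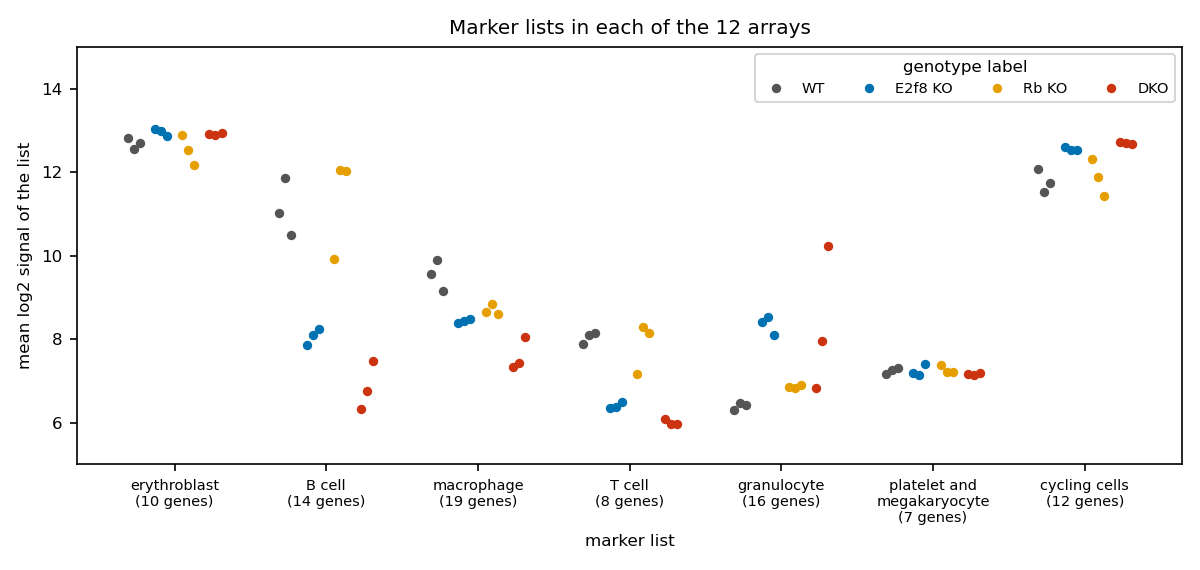
Mean log2 signal of 7 marker lists (y axis) in each of the 12 arrays, coloured by genotype label. Erythroblast markers lay between 12.17 and 13.04 throughout, while the B cell list was at or below 8.24 in every E2f8 KO and DKO array and at or above 9.92 in every WT and Rb KO array.

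Of the 28 p53 pathway genes tested, 12 to 14 were higher in arrays with the E2f8 label, and 0 were called under the Rb label alone at the threshold used, an adjusted p under 0.05. Those that rose included Phlda3, an inhibitor of Akt, with the largest difference, the cyclin Ccng1, the microtubule-binding protein Gtse1 and Mdm2. In E2f8 KO against WT, 12 of 28 members rose and 2 fell, and the median difference of the 28 was 0.25 on the log2 scale against 0.06 over all genes tested. In the same comparison 11.9% of all genes tested rose and 14.2% fell. In DKO against WT, 14 of 28 rose and 2 fell, with a median of 0.59 against 0.00, where 20.6% of all genes rose and 17.6% fell. In DKO against Rb KO, 14 rose and 3 fell, with a median of 0.65 against -0.01, where 19.5% of all genes rose and 17.6% fell. So the share of members that rose was higher than the share of all genes in each of these comparisons, and the share that fell was lower. The members were chosen with earlier results of these data known, so this excess is a description and not a test. In a second list of p53 targets, described below, 7 of 29 rose and 6 fell in E2f8 KO against WT. By role, the members that rose in E2f8 KO were 5 of 7 feedback genes and partners, 2 of 6 arrest and stress genes, 1 of 5 repair genes, 4 of 7 death and survival genes and 0 of 3 other targets. When each array's B cell list mean entered the fit as a covariate, the members called fell from 14 to 3 in E2f8 KO against WT, from 16 to 6 in DKO against WT and from 17 to 4 in DKO against Rb KO. Over all genes tested, the calls fell from 3388 to 264, from 4952 to 1039 and from 4819 to 594. The slope of that fit rests on the spread within groups, most of it from Rb KO replicate 1, and without that array the covariate left 1, 2 and 0 members called in the same order, among 27, 42 and 5 genes.

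**Figure D2:**
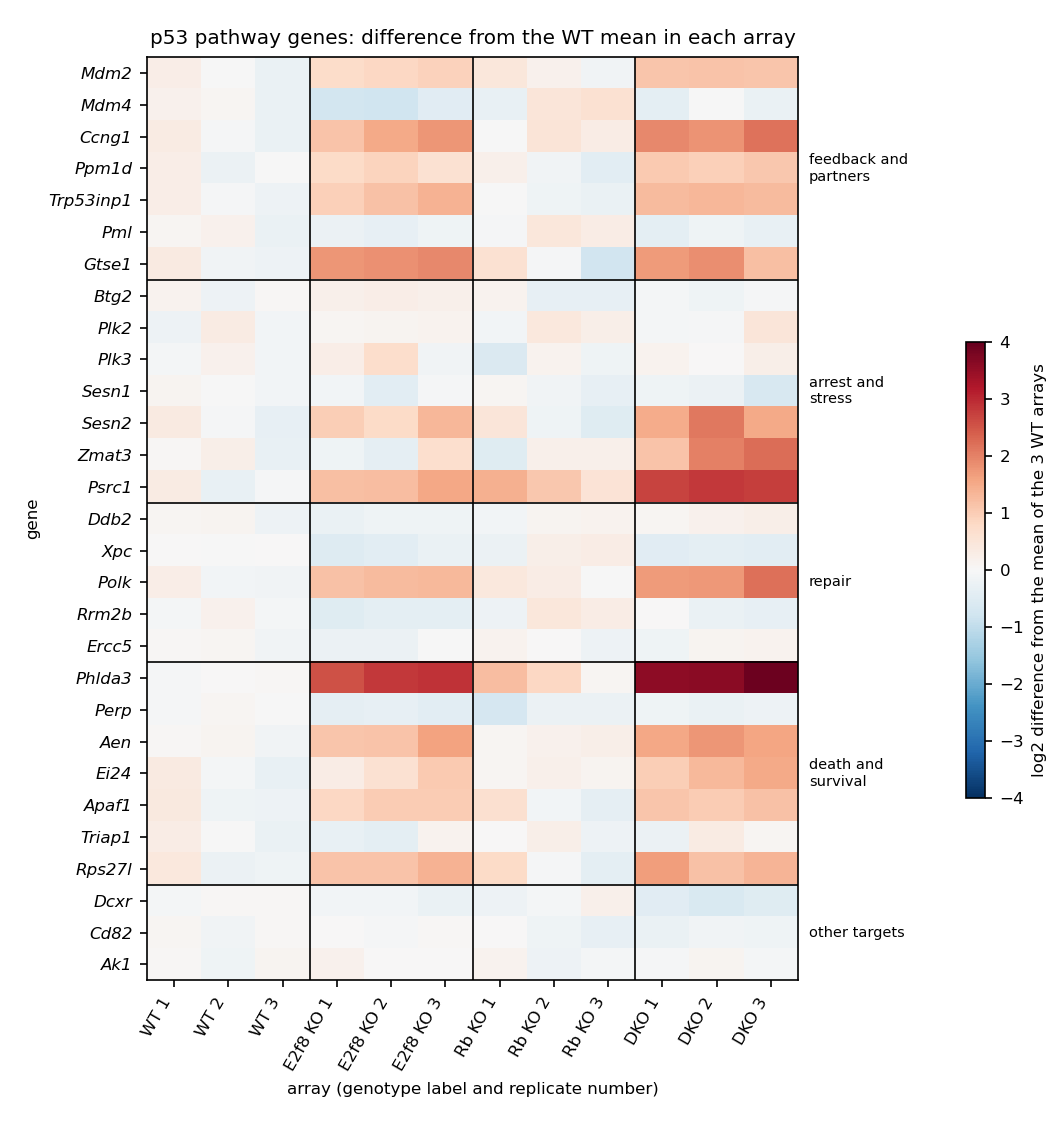
Log2 difference of each of the 29 measured p53 pathway genes (rows, by role) from the mean of the 3 WT arrays, in each of the 12 arrays (columns, by genotype label and replicate number). Red is higher and blue lower than the WT mean, and the E2f8 KO and DKO columns are red for the same block of feedback and death genes, with Phlda3 the darkest.

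Promoter letters were compared because many members moved together. RefSeq promoter windows on GRCm38.p6, from 250 bases before to 50 bases after each annotated start, were present for 25 members, in 39 windows. Each was searched on both strands for the p53 consensus, a pair of 10-base elements with no spacer, keeping the 4 core letters of the pair. With at most 1 mismatch, 3 of the 39 windows held it (7.692%), against 22 of all 32851 windows (0.067%). The 3 belonged to Ccng1, Gtse1 and Rps27l, all 3 higher in E2f8 KO and in DKO. With up to 3 mismatches it was found in 7 of 39 windows (17.949%) and in 453 of all windows (1.379%), which added Aen, Trp53 and Sesn1, a gene not called in any comparison. A match is a description of the letters and not a binding site, and the members were listed as p53 targets, which is often known from such elements. The windows below are shown for the 3 closest matches, for Aen, with 3 mismatches, and for Phlda3, the member with the largest difference, which held no match within 3 mismatches. Capitals mark the match.
Ccng1, chr11:40755237-40755536, minus strand, match centred at -185 from the start: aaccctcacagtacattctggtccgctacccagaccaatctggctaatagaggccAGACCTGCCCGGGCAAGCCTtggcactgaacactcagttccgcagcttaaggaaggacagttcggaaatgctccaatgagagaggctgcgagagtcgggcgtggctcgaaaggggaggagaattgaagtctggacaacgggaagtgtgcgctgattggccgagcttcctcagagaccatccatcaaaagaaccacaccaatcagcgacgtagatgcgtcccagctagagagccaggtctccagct
Gtse1, chr15:85859696-85859995, plus strand, match centred at 9 after the start: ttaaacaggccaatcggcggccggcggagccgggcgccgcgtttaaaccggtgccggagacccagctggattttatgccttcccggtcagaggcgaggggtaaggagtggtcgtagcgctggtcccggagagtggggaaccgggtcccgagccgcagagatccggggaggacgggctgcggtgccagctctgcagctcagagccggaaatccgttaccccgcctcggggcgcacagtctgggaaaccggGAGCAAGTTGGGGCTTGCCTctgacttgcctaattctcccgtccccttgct
Rps27l, chr9:66946163-66946462, plus strand, match centred at -107: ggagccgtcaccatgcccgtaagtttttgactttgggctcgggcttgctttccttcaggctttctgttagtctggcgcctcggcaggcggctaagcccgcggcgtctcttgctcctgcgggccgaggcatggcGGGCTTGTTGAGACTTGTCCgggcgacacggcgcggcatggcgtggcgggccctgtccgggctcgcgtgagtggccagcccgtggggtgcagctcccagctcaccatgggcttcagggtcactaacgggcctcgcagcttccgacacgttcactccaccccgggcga
Aen, chr7:78895677-78895976, plus strand, match centred at 20 after the start: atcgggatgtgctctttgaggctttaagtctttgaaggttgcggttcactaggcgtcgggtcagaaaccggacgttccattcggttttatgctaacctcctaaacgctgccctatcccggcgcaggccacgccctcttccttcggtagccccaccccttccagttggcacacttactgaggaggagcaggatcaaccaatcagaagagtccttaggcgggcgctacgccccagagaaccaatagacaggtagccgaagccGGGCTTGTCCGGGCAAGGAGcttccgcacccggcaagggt
Phlda3, chr1:135765835-135766134, plus strand, no match: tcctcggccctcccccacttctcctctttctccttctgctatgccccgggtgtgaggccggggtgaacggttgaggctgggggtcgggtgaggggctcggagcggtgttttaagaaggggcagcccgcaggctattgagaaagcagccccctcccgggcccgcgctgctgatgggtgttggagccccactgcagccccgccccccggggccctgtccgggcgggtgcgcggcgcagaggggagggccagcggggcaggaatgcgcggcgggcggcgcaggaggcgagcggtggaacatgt
The E2F site letters TTTCCCGC, TTTGGCGC, TTTCGCGC and TTTGCCGC, searched on both strands, were in 0 of the 39 windows and in 2.265% of all windows. The cell cycle homology region, spelled TTTGAA or TTCGAA, was in 5 of 39 windows (12.821%), that of Psrc1 among them, and in 19.226% of all windows.

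Of the 7 feedback genes and p53 partners tested, Mdm2, Ccng1, Ppm1d, Trp53inp1 and Gtse1 were higher in E2f8 KO and in DKO, and Mdm4 and Pml were not. Mdm2, the ubiquitin ligase that marks p53 for destruction, stood at 9.59, 9.32 and 9.07 in WT arrays and at 9.78, 9.50 and 9.18 in Rb KO arrays, whereas the E2f8 KO arrays gave 10.06, 10.15 and 10.26 and the DKO arrays 10.43, 10.46 and 10.44. All E2f8 KO and DKO arrays were above all WT and Rb KO arrays, and Rb KO overlapped WT. The difference was 0.83 ± 0.18 (SE, adjusted p = 0.00706), or 1.78-fold, in E2f8 KO against WT and 1.12 ± 0.18 (adjusted p = 0.000534) in DKO against WT. With the B cell covariate neither was called, at 0.54 ± 0.35 (adjusted p = 0.542) and 0.70 ± 0.46 (adjusted p = 0.371).

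Ccng1, cyclin G1, which brings a phosphatase to Mdm2, had log2 signals of 10.80, 10.41 and 10.20 under the WT label and 10.45, 10.99 and 10.76 under the Rb KO label, beside 11.62, 11.98 and 12.23 under the E2f8 KO label and 12.39, 12.27 and 12.63 under the DKO label. The 4 groups formed a low pair, WT and Rb KO, and a high pair, in which DKO lay above E2f8 KO in every array. Ccng1 rose by 1.47 ± 0.20 (adjusted p = 0.000698), 2.78-fold, in E2f8 KO and by 1.96 ± 0.20 (adjusted p = 2.78e-05), 3.89-fold, in DKO, both against WT. With the B cell covariate it stayed called in E2f8 KO against WT, at 2.11 ± 0.33 (adjusted p = 0.00753), but not when Rb KO replicate 1 was also left out (2.14 ± 0.51, adjusted p = 0.14).

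Ppm1d, also called Wip1, is a phosphatase that switches off p53 and the kinases that activate it. It read 12.17, 11.66 and 11.88 in the WT arrays and 12.11, 11.77 and 11.47 in the Rb KO arrays, against 12.68, 12.79 and 12.50 with the E2f8 label alone and 12.95, 12.85 and 12.97 with both labels. The E2f8 KO and DKO arrays did not overlap with WT or Rb KO, although the gap was small, with a difference of 0.75 ± 0.16 (adjusted p = 0.00666) in E2f8 KO and 1.02 ± 0.16 (adjusted p = 0.000445) in DKO. With the B cell covariate neither was called, at 0.18 ± 0.26 (adjusted p = 0.861) and 0.22 ± 0.34 (adjusted p = 0.728). Trp53inp1, a stress protein that promotes p53 activity, stood at 10.88, 10.58 and 10.41 in WT arrays and at 10.60, 10.45 and 10.36 in Rb KO arrays, whereas the E2f8 KO arrays gave 11.59, 11.79 and 12.01 and the DKO arrays 11.90, 11.95 and 11.88. E2f8 KO and DKO overlapped each other and were both above WT and Rb KO. Its difference from WT was 1.17 ± 0.15 (adjusted p = 0.000552) and 1.29 ± 0.15 (adjusted p = 5.75e-05). With the B cell covariate neither was called, at 1.08 ± 0.30 (adjusted p = 0.0733) and 1.17 ± 0.39 (adjusted p = 0.0762).

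Gtse1 encodes a microtubule-binding protein of dividing cells that moves p53 out of the nucleus. It had log2 signals of 8.65, 8.16 and 8.09 under the WT label and 8.91, 8.24 and 7.54 under the Rb KO label, beside 10.06, 10.14 and 10.23 under the E2f8 KO label and 10, 10.16 and 9.51 under the DKO label. Its difference from WT was 1.84 ± 0.30 (adjusted p = 0.00158) in E2f8 KO and 1.59 ± 0.30 (adjusted p = 0.00118) in DKO, the only one of the 14 members with a higher mean in E2f8 KO than in DKO, by a difference that was not called. The cycling cell list rose in the same groups, with 10 of its 12 genes called higher in E2f8 KO and 12 of 12 in DKO against WT. Its part in the Gtse1 result was not tested. With the B cell covariate Gtse1 was not called in E2f8 KO, at 0.73 ± 0.45 (adjusted p = 0.516), or in DKO, at 0.03 ± 0.59 (adjusted p = 0.981), against WT. Mdm4, the non-ligase relative of Mdm2, differed by -0.66 ± 0.23 (adjusted p = 0.0503) in E2f8 KO and by -0.23 ± 0.23 (adjusted p = 0.495) in DKO, with values from 7.19 to 8.59 over all arrays. Pml, the scaffold of the nuclear bodies where p53 is modified, lay between 10.52 and 11.34 and was called in DKO against Rb KO alone, at -0.51 ± 0.17 (adjusted p = 0.0278). That call was lost without Rb KO replicate 2 or 3 or without DKO replicate 1 or 3 (adjusted p from 0.0738 to 0.127), and with each array centred on its median (adjusted p = 0.0557).

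Among the arrest and stress genes, Sesn2 and Psrc1 rose in E2f8 KO, and Zmat3 joined them in DKO. Sesn2, a sestrin that restrains mTORC1 under stress, read 8.64, 8.23 and 7.93 in the WT arrays and 8.76, 8.09 and 7.78 in the Rb KO arrays, against 9.26, 9.03 and 9.59 with the E2f8 label alone and 9.74, 10.38 and 9.77 with both labels. Each DKO array was above each E2f8 KO array, and these were above WT and Rb KO. The difference from WT was 1.03 ± 0.28 (adjusted p = 0.0183) in E2f8 KO and 1.70 ± 0.28 (adjusted p = 0.000558), 3.24-fold, in DKO. The E2f8 KO call was lost without WT replicate 2 or 3 or without E2f8 KO replicate 1 or 3 (adjusted p from 0.0536 to 0.0762). With the B cell covariate Sesn2 was not called in E2f8 KO, at 0.37 ± 0.49 (adjusted p = 0.839), or in DKO, at 0.78 ± 0.65 (adjusted p = 0.49), against WT.

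Psrc1, a proline- and serine-rich coiled-coil protein of the mitotic spindle, had the largest difference of any member in Rb KO against WT. It stood at 8.19, 7.55 and 7.80 in WT arrays and at 9.26, 8.93 and 8.39 in Rb KO arrays, whereas the E2f8 KO arrays gave 9.06, 9.09 and 9.38 and the DKO arrays 10.55, 10.67 and 10.60. WT lay lowest, E2f8 KO and Rb KO overlapped each other above it, and DKO lay above all. Its difference from WT was 1.33 ± 0.23 (adjusted p = 0.00215) in E2f8 KO, 1.01 ± 0.23 (adjusted p = 0.204) in Rb KO and 2.76 ± 0.23 (adjusted p = 5.89e-06), 6.79-fold, in DKO. The Rb KO value, with an unadjusted p of 0.000678, did not pass over 12980 genes. With the B cell covariate the Rb KO value was called, at 1.06 ± 0.20 (adjusted p = 0.0237), and that in E2f8 KO was not, at 0.69 ± 0.39 (adjusted p = 0.456).

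Zmat3, a zinc finger protein that binds RNA and acts in splicing, was called in DKO but not in E2f8 KO. It had log2 signals of 6.21, 6.41 and 5.87 under the WT label and 5.68, 6.36 and 6.38 under the Rb KO label, beside 6.00, 5.79 and 6.83 under the E2f8 KO label and 7.31, 8.18 and 8.39 under the DKO label. The other 3 groups overlapped near the filter level, and every DKO array was above all of them. The difference was 0.04 ± 0.32 (adjusted p = 0.932) in E2f8 KO against WT, 1.80 ± 0.32 (adjusted p = 0.000799) in DKO against WT and 1.76 ± 0.32 (adjusted p = 0.0125) in DKO against E2f8 KO. The remaining members of this role were not called in any comparison. Btg2, an antiproliferative partner of the mRNA deadenylation complex, lay between 11.86 and 12.48, Plk3, another polo-like kinase, between 6.32 and 7.59, and Sesn1, the sestrin related to Sesn2, between 10.79 and 11.54. Sesn1 differed by -0.20 ± 0.16 (adjusted p = 0.405) in E2f8 KO against WT, beside 1.03 for Sesn2.

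Repair genes were split, with 1 higher, 1 lower and 3 not called. Polk encodes DNA polymerase kappa, which copies past damaged bases. It read 7.42, 7.04 and 7.0 in the WT arrays and 7.59, 7.44 and 7.14 in the Rb KO arrays, against 8.31, 8.41 and 8.44 with the E2f8 label alone and 8.87, 8.89 and 9.37 with both labels. The group means rose in the order WT, Rb KO, E2f8 KO, then DKO. Of these neighbours only WT and Rb KO overlapped. Polk rose by 1.23 ± 0.19 (adjusted p = 0.0013) in E2f8 KO and by 1.89 ± 0.19 (adjusted p = 2.44e-05), 3.71-fold, in DKO against WT. With the B cell covariate the E2f8 KO value was not called, at 1.18 ± 0.37 (adjusted p = 0.118). That of DKO was, at 1.81 ± 0.48 (adjusted p = 0.0324). Xpc, which finds distorted DNA at the start of nucleotide excision repair, was dim, between 5.72 and 6.52, with E2f8 KO and DKO means of 5.83 and 5.80 just below the filter level. It fell by 0.40 ± 0.14 (adjusted p = 0.0446) in E2f8 KO against WT, by 0.43 ± 0.14 (adjusted p = 0.0225) in DKO against WT and by 0.53 ± 0.14 (adjusted p = 0.00837) in DKO against Rb KO. A signal below the filter level gives only a bound, so the sizes of these falls are uncertain. The E2f8 KO call was lost on leaving out any array of WT or E2f8 KO, any of DKO, or Rb KO replicate 2 (adjusted p from 0.0518 to 0.158), and its sign turned to 0.07 ± 0.24 (adjusted p = 0.956) with the B cell covariate. The DKO call against WT was lost without WT replicate 2 or without DKO replicate 1 or 3 (adjusted p from 0.0535 to 0.0564). Ddb2, the partner of Xpc in damage recognition, lay between 6.07 and 6.58, Rrm2b, the p53-induced ribonucleotide reductase subunit, between 6.23 and 7.17, and Ercc5, the endonuclease XPG, between 6.82 and 7.22. None of these 3 was called.

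Death and survival genes held the largest difference and 4 of the 12 members that rose in E2f8 KO. Phlda3 encodes a pleckstrin homology protein that competes with Akt for membrane lipids and so blocks survival signalling. It stood at 7.57, 7.64 and 7.67 in WT arrays and at 8.86, 8.46 and 7.72 in Rb KO arrays, whereas the E2f8 KO arrays gave 10.16, 10.46 and 10.53 and the DKO arrays 11.22, 11.25 and 11.56. No group overlapped another, although the lowest Rb KO array was close to the WT arrays. The difference from WT was 2.75 ± 0.24 (adjusted p = 7.03e-05), 6.75-fold, in E2f8 KO, 0.72 ± 0.24 (adjusted p = 0.641) in Rb KO and 3.71 ± 0.24 (adjusted p = 1.92e-06), 13.1-fold, in DKO. With the B cell covariate Phlda3 was at 2.24 ± 0.44 (adjusted p = 0.0187) in E2f8 KO against WT, and at 3.28 ± 0.57 (adjusted p = 0.0403) when Rb KO replicate 1 was left out as well.

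Aen, an apoptosis-enhancing nuclease, had log2 signals of 7.32, 7.37 and 7.13 under the WT label and 7.34, 7.46 and 7.51 under the Rb KO label, beside 8.38, 8.42 and 8.87 under the E2f8 KO label and 8.83, 9.03 and 8.84 under the DKO label. E2f8 KO and DKO overlapped each other and were above WT and Rb KO. The difference was 1.28 ± 0.17 (adjusted p = 0.0006) in E2f8 KO and 1.63 ± 0.17 (adjusted p = 2.86e-05) in DKO against WT, and with the B cell covariate it was 1.56 ± 0.32 (adjusted p = 0.021) in E2f8 KO. The latter was not called when Rb KO replicate 1 was left out as well (1.68 ± 0.49, adjusted p = 0.219). Apaf1, the core of the apoptosome that activates caspase 9, read 8.99, 8.42 and 8.39 in the WT arrays and 9.25, 8.50 and 8.23 in the Rb KO arrays, against 9.43, 9.63 and 9.62 with the E2f8 label alone and 9.71, 9.60 and 9.76 with both labels. The highest Rb KO array, at 9.25, came close to the lowest E2f8 KO array, at 9.43, without overlap. Apaf1 rose by 0.96 ± 0.25 (adjusted p = 0.0141) in E2f8 KO, a call lost without WT replicate 2 (adjusted p = 0.0634) or E2f8 KO replicate 2 (adjusted p = 0.051), and by 1.09 ± 0.25 (adjusted p = 0.00383) in DKO. With the B cell covariate neither was called, at 0.18 ± 0.41 (adjusted p = 0.931) in E2f8 KO and 0.001 ± 0.535 in DKO.

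Rps27l, a ribosomal protein paralog that acts on Mdm2, stood at 9.85, 9.20 and 9.27 in WT arrays and at 10.22, 9.38 and 9.05 in Rb KO arrays, whereas the E2f8 KO arrays gave 10.59, 10.57 and 10.82 and the DKO arrays 11.12, 10.61 and 10.80. It rose by 1.22 ± 0.27 (adjusted p = 0.00766) in E2f8 KO and by 1.40 ± 0.27 (adjusted p = 0.00154) in DKO, and in the latter its sign turned to -0.08 ± 0.54 (adjusted p = 0.939) with the B cell covariate. The E2f8 KO value was not called with that covariate either, at 0.155 ± 0.411 (adjusted p = 0.944). Ei24, a membrane protein of the endoplasmic reticulum linked to growth arrest and autophagy, had log2 signals of 9.30, 8.85 and 8.64 under the WT label and 9.01, 9.12 and 9.05 under the Rb KO label, beside 9.23, 9.54 and 9.98 under the E2f8 KO label and 9.90, 10.24 and 10.44 under the DKO label. E2f8 KO overlapped WT, and its difference of 0.65 ± 0.23 (adjusted p = 0.0509) was not called, whereas Ei24 rose by 1.26 ± 0.23 (adjusted p = 0.000933) in DKO. With the B cell covariate the DKO value was not called, at 1.84 ± 0.55 (adjusted p = 0.0513). Perp, a desmosomal p53 target, was between 5.86 and 6.58 and fell by 0.38 ± 0.13 (adjusted p = 0.0431) in E2f8 KO against WT. That call was lost on leaving out any 1 array of WT or E2f8 KO, or DKO replicate 2 or 3 (adjusted p from 0.0522 to 0.148), under the replicate block (adjusted p = 0.061), and its sign turned with the B cell covariate, to 0.04 ± 0.23 (adjusted p = 0.974). Triap1, a mitochondrial survival factor, lay between 7.18 and 7.88 and was not called. Of the other targets, Dcxr, a carbonyl and xylulose reductase, read between 6.96 and 7.12 in DKO and between 7.30 and 7.77 elsewhere, with a difference of -0.51 ± 0.15 (adjusted p = 0.0143) against WT that was lost without WT replicate 2 or DKO replicate 2 (adjusted p of 0.0528 and 0.0516). The tetraspanin Cd82, between 13.01 and 13.44, and adenylate kinase Ak1, between 6.08 and 6.47, were not called.

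Of the 29 measured members, 14 had all 3 DKO arrays above every WT and Rb KO array, as did 20.4% of all genes tested, and 12 had all 3 E2f8 KO arrays above them, as did 16.8%.

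**Figure D3:**
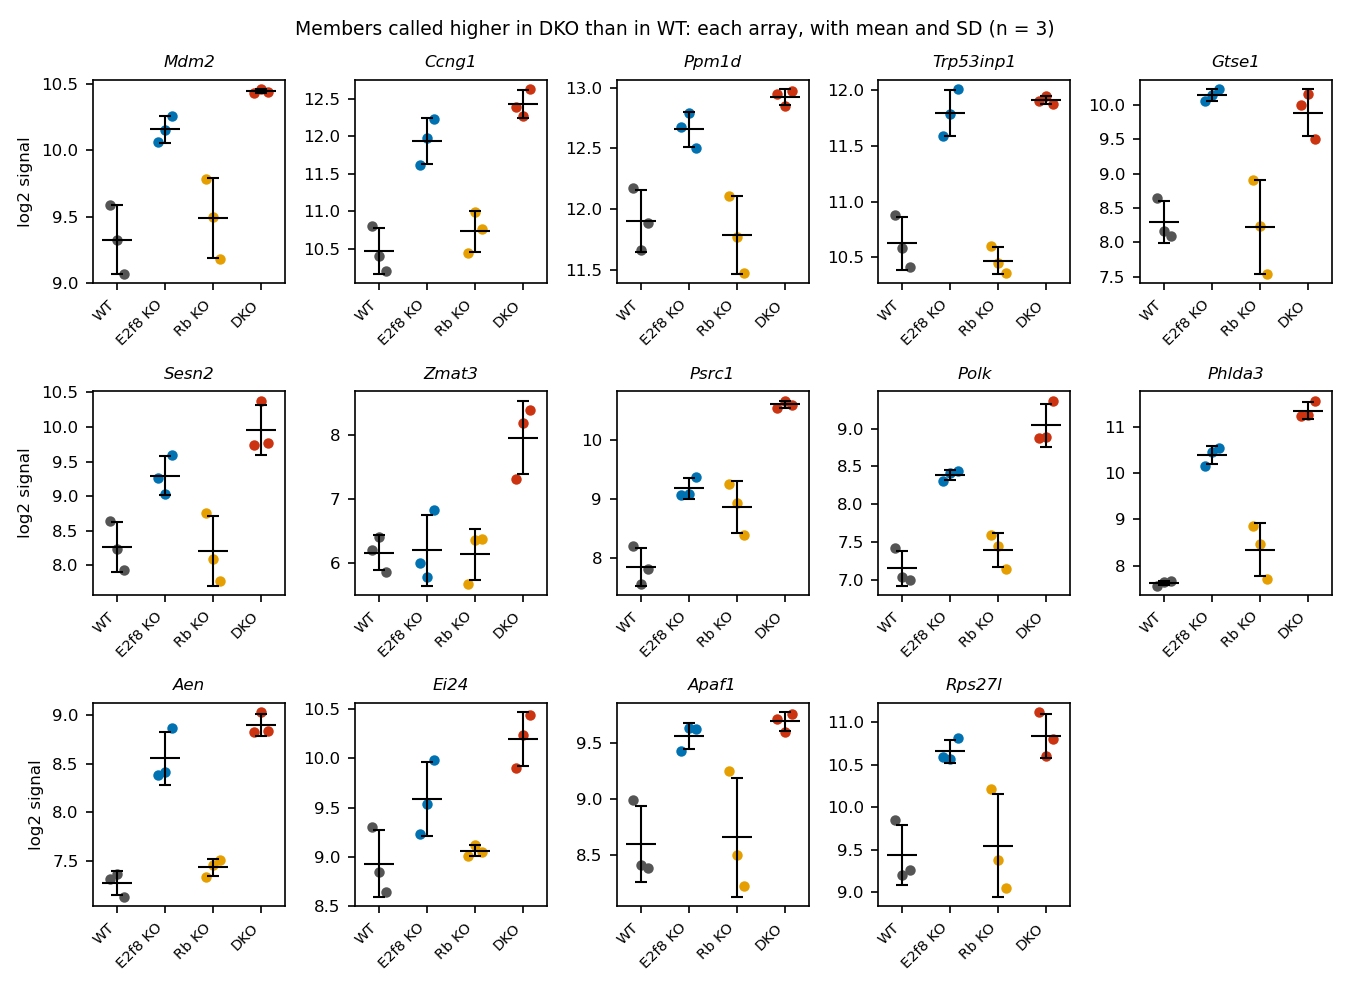
Log2 signal (y axis, a separate range for each panel) of the 14 members called higher in DKO than in WT, in each array, by genotype label. Points are arrays, the wide bar is the mean of 3 arrays and the whiskers are the SD. In all 14 panels every DKO point is above every WT and Rb KO point. The panels were chosen for their higher DKO signal.

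In some groups 1 array was the highest for most of these 14 members. Rb KO replicate 1 was the highest of the Rb KO arrays for 10 of the 14, WT replicate 1 the highest of WT for 11 and E2f8 KO replicate 3 the highest of E2f8 KO for 12, whereas in DKO replicates 1, 2 and 3 were the highest for 1, 6 and 7. Within Rb KO, replicate 1 was also the highest in the cycling cell list, at 12.31 against 11.89 and 11.42, and the lowest in the B cell list. Within WT, replicate 1 was the highest in the cycling cell list, at 12.08 against 11.53 and 11.75, but not the lowest in the B cell list, at 11.01 against 11.86 and 10.49. Within E2f8 KO, replicate 3 was the highest in the B cell list, at 8.24 against 7.85 and 8.10, and not the highest in the cycling cell list, at 12.54 against 12.61 and 12.53. DKO replicates 1, 2 and 3 read 6.32, 6.75 and 7.48 in the B cell list and 12.73, 12.71 and 12.67 in the cycling cell list. In the granulocyte list they read 6.84, 7.96 and 10.22. Which array was highest was not counted over all genes tested, and the part of these lists in the members' values was not tested. With replicate 3 of both E2f8 KO and DKO left out, the arrays that stood apart in Xist, 10 members rose and 0 fell in E2f8 KO against WT, 14 rose and 0 fell in DKO against WT, and 14 rose and 1 fell in DKO against Rb KO.

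The effect of the E2f8 label could be read in separate arrays with and without the Rb label, since E2f8 KO against WT and DKO against Rb KO have no array in common. All 12 members that rose in the first also rose in the second: Aen, Apaf1, Ccng1, Gtse1, Mdm2, Phlda3, Polk, Ppm1d, Psrc1, Rps27l, Sesn2 and Trp53inp1. They were 12 of the 14 that rose in the second, the others being Ei24 and Zmat3. Side by side, the difference was 2.75 and 2.99 for Phlda3, 1.47 and 1.70 for Ccng1, 0.83 and 0.95 for Mdm2, 1.23 and 1.66 for Polk, and 1.84 and 1.66 for Gtse1. It was 1.03 and 1.75 for Sesn2, 0.75 and 1.14 for Ppm1d, and 1.33 and 1.75 for Psrc1. For Trp53inp1 it was 1.17 and 1.44, for Aen 1.28 and 1.47, for Rps27l 1.22 and 1.30, and for Apaf1 0.96 and 1.03. Over the 28 members, 17 differences were above 0 in both, 6 below 0 in both and 5 of opposite sign. Such overlaps and signs were not counted over all genes tested, so they cannot be read as particular to the members. No member passed the test of the difference between these effects, the interaction of the labels, where 0.0539% of all genes were higher and 0.0231% lower. Unadjusted, 2 members and 740 genes had a p under 0.05. The largest member value was that of Zmat3, at 1.78 ± 0.45 (adjusted p = 0.36), which passed with the B cell covariate, at 2.40.

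**Figure D4:**
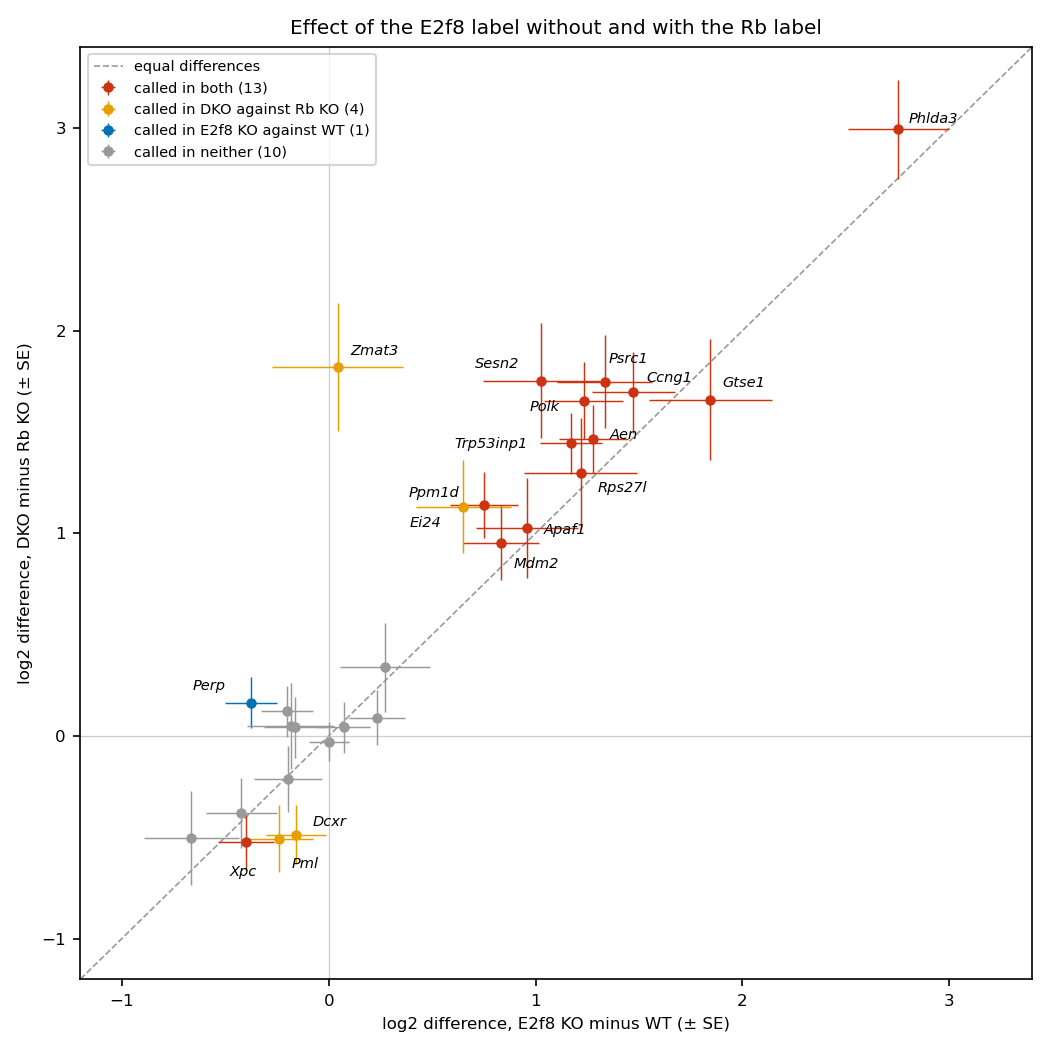
Log2 difference with its SE for each of the 28 members in E2f8 KO minus WT (x axis) and in DKO minus Rb KO (y axis), coloured by the comparisons in which it was called. The dashed line marks equal differences. The 12 members that rose in both lie at 0.75 or more on each axis, with Sesn2 at 1.03 and 1.75. Zmat3, at 0.04 and 1.82, lies farthest above the line.

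The Rb label alone gave no called member. In Rb KO against WT 0 of 28 members passed, as did 0% of all genes in the higher direction and 0.0077% in the lower. At an unadjusted p under 0.05 there were 3 members, Psrc1, Phlda3 and Perp, and 597 genes, and with limma's array weights or the B cell covariate 1 member was called. The median of the 28 members was 0.02 against 0.04 over all genes. In DKO against E2f8 KO, which asks what the Rb label added where the E2f8 label was already present, 2 of 28 members rose and 0 fell, where 1.73% of all genes rose and 0.647% fell. These were Psrc1, at 1.43 ± 0.23 (adjusted p = 0.00723), 2.69-fold, and Zmat3, 3.38-fold. The median of the 28 was 0.21 against -0.02, and 19 were above 0. Phlda3 differed by 0.96 ± 0.24 (adjusted p = 0.0611), Polk by 0.66 ± 0.19 (adjusted p = 0.0962) and Ccng1 by 0.49 ± 0.20 (adjusted p = 0.232), none of them called. Their DKO arrays all lay above their E2f8 KO arrays, as they did for 12 of the 29 measured members. This pattern was not counted over all genes tested. The count of 2 was not stable: it was 1 without E2f8 KO replicate 1 or 2 or DKO replicate 2 or 3, where Zmat3 was lost (adjusted p from 0.0578 to 0.0767), and 1 without replicate 3 of both groups, where Psrc1 was lost (1.53, adjusted p = 0.0728). It was 10 with array weights and 5 with the 2 groups fitted alone.

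Further genes known as p53 targets were counted from a second list, of which 29 of 37 were tested. Cdkn1a, the p21 inhibitor of cyclin-dependent kinases and the best known p53 target, and Bax, Fdxr and Gls2 had no probe set with a single symbol and were not analysed here. In E2f8 KO against WT 7 of 29 rose and 6 fell, in DKO against WT 10 rose and 8 fell, and in DKO against Rb KO 10 rose and 9 fell, with medians of -0.02, 0.11 and 0.09. The shares of all genes tested, given above, were 11.9% and 14.2%, 20.6% and 17.6%, and 19.5% and 17.6%. In Rb KO against WT 0 of 29 were called, with 3 at an unadjusted p under 0.05 by limma. Those that rose in E2f8 KO included the pro-apoptotic Bbc3 (Puma), by 1.25 ± 0.22 (adjusted p = 0.0027), and the thiamine transporter Slc19a2, by 1.80 ± 0.26 (adjusted p = 0.000988). Those that fell included Ninj1, a cell surface protein that ruptures dying cells, by 1.37 ± 0.18 (adjusted p = 0.000659), and the polyamine enzyme Sat1, by 1.28 ± 0.22 (adjusted p = 0.00215). The largest falls in DKO against WT were those of the epoxide hydrolase Ephx1 (-3.16 ± 0.47, adjusted p = 0.000273) and Trp53i11 (-3.15 ± 0.58, adjusted p = 0.00104). Trp53i11 ranged from 9.09 to 11.90 within Rb KO, whose B cell list ranged from 9.92 to 12.06, and the part of other cells in its fall was not tested.

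Of this second list, Eda2r, Tnfrsf10b and Pidd1 had the smallest p in DKO against WT. Eda2r, the receptor for ectodysplasin A2, read 5.24, 5.18 and 5.45 in the WT arrays and 5.37, 5.33 and 5.26 in the Rb KO arrays, against 7.08, 7.34 and 7.70 with the E2f8 label alone and 9.40, 9.46 and 10.10 with both labels. WT and Rb KO were below the filter level, E2f8 KO was in between and DKO was highest, with no overlap. By limma it was called higher in E2f8 KO (adjusted p = 0.000126) and in DKO (adjusted p = 1.99e-07) against WT. It passed the filter only through its signal in E2f8 KO and DKO, so these calls and their p have no measured baseline. Set against the filter level in place of the WT mean, it was higher by at least 1.53 in E2f8 KO and by at least 3.81 in DKO on the log2 scale. DKO exceeded E2f8 KO, where it was above that level too, by 2.28 ± 0.20 (adjusted p = 9.35e-05). Tnfrsf10b, the TRAIL death receptor, stood at 6.02, 6.51 and 6.22 in WT arrays and at 5.95, 5.93 and 5.96 in Rb KO arrays, whereas the E2f8 KO arrays gave 6.07, 6.34 and 6.51 and the DKO arrays 8.36, 8.48 and 8.75. WT, E2f8 KO and Rb KO stayed near the filter level and DKO lay above them, by 2.28 ± 0.16 (adjusted p = 2.98e-06) against WT and by 2.22 ± 0.16 (adjusted p = 3.52e-05) against E2f8 KO. Pidd1, which assembles the caspase 2 activating complex, had log2 signals of 8.25, 7.62 and 8.09 under the WT label and 8.66, 8.56 and 8.21 under the Rb KO label, beside 8.52, 8.36 and 8.62 under the E2f8 KO label and 9.88, 9.95 and 10.08 under the DKO label. It rose by 1.98 ± 0.19 (adjusted p = 1.95e-05) in DKO against WT and by 1.47 ± 0.19 (adjusted p = 0.00193) against E2f8 KO. Eda2r, Tnfrsf10b and Pidd1 were the 3 genes of this list that rose in DKO against E2f8 KO, and 0 fell. Tnfrsf10b also passed the interaction test, at 2.53 ± 0.23 (adjusted p = 0.000465).

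Regulators upstream of p53 were counted from a separate list. Of 18 tested, 1 rose and 1 fell in E2f8 KO against WT: Trim28, a cofactor of Mdm2, by 0.64 ± 0.17 (adjusted p = 0.0142), and the ribosomal protein Rpl5, which inhibits Mdm2, by -0.53 ± 0.15 (adjusted p = 0.02). In DKO against WT 4 rose and 4 fell, and in DKO against Rb KO 2 rose and 1 fell. With 18 genes, these counts are near or below what the shares of all genes in each comparison would give. The checkpoint kinase Chek1, which acts when replication stalls, rose by 1.92 ± 0.36 (adjusted p = 0.00113) in DKO against WT, and Rpl5 fell by 0.85 ± 0.15 (adjusted p = 0.000719). The other changed genes in that comparison were Trp53bp2, Rchy1 and Trim28, which rose, and the acetyltransferases Crebbp and Ep300 and the damage sensor Trp53bp1, which fell. None of the 18 was called in Rb KO against WT, in DKO against E2f8 KO or in the interaction, where 2, 2 and 0 had an unadjusted p under 0.05 by limma.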

How the data were processed

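RNA of 12 arrays, 3 per genotype label, was analysed from 1 table of log2 values as deposited by the authors. MAS5 is named per the submitters' processing notes, without a version, and the sources used here do not state the normalization between arrays. Of 35557 probe sets, 21789 had 1 gene symbol. The lowest 40% by mean over all arrays (below 5.84) were removed, and per gene the brightest probe set was kept, which left 12980 genes. Differences were tested with limma 3.58.1 (R 4.3.3), with 1 coefficient per group, all arrays in 1 fit, a mean trend in the variance prior and Benjamini-Hochberg adjustment over all genes within each of 6 comparisons. Tests were two-sided, with calls made at an adjusted p under 0.05. The median SE of a difference was 0.184, set by 3 arrays per group, and p-values measure the spread between these labelled biological replicates. The fit was tested on simulated data.

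The members and the further lists were chosen with earlier results of these data known. All 31 members are reported by role, with every array for those called with a difference of 1 or more, and of the further lists the 4 called genes with the smallest p in E2f8 KO against WT, DKO against WT and DKO against Rb KO. Bbc3, Ephx1, Trp53i11 and the named upstream regulators were chosen after their values were seen. Marker lists of erythroblasts, B cells, macrophages, T cells, granulocytes, platelets and megakaryocytes (means from 7.16 to 7.27 by group) and cycling cells were averaged per array. Alternatives were other filters, normalizations, variance settings, samples, thresholds, a B cell covariate, the replicate block and leaving out each array. Promoter windows are from RefSeq on GRCm38.p6.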

Additional observations from a re-analysis of the deposited data

Results flagged for a closer look

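Both results below came from the test of whether the effect of the E2f8 label differs with the Rb label, and both genes belong to the further list of p53 targets, not to the members. For Eda2r, the effect of the E2f8 label in arrays with the Rb label exceeded that without it by 2.25 (log2 scale, SE 0.28, adjusted p = 0.00841 by limma). Its WT and Rb KO values all lay below the filter level, where a signal gives only a bound, so this excess and its p have no measured baseline. The difference between DKO and E2f8 KO, which were both above that level, was 2.28 (SE 0.20, adjusted p = 9.35e-05). For Tnfrsf10b, the excess was 2.53 (SE 0.23, adjusted p = 0.000465), from 0.06 in E2f8 KO against WT to 2.58 in DKO against Rb KO. With the B cell list mean as a covariate and Rb KO replicate 1 left out, the Tnfrsf10b value was 3.22 (adjusted p = 0.00177).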

How the results depend on the processing

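Over all settings without a covariate, 1120 values of called members were recomputed: 1054 kept their call, 66 lost it and 0 turned sign. Some of these settings, such as the replicate block, no mean trend or an adjusted p under 0.01, left the difference itself unchanged. There its sign could not turn. Of 28 members, 14 were called in E2f8 KO and 16 in DKO, both against WT, and 17 in DKO against Rb KO, and leaving out each array in turn gave 10 to 17, 14 to 16 and 15 to 19. For DKO against E2f8 KO it gave 1 to 3, and for Rb KO against WT and the interaction 0 throughout. In DKO against E2f8 KO the count of 2 became 1 with the lowest 60% removed, 10 with array weights, 5 with only the groups compared, 1 at an adjusted p under 0.01, and 1 with replicate 3 of E2f8 KO and DKO left out. In Rb KO against WT array weights gave 1. For the interaction, a fit of only the groups compared is the reported fit. With the replicate number as a replicate block, 13 members were called in E2f8 KO and 16 in DKO, both against WT, with 17 and 2 for DKO against the Rb KO and E2f8 KO groups and 0 for the interaction and for Rb KO. The call lost was that of Perp (adjusted p = 0.061). Deviations of same-numbered arrays of different groups correlated at -0.38 to 0.57 (median 0.073), and those of other-numbered arrays at -0.7 to 0.61 (median -0.076). These ranges overlapped, and whether the numbers pair the arrays is not known here.

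With the B cell list mean as a covariate, members called were 3, 6 and 4 in E2f8 KO, DKO against WT and DKO against Rb KO, 6 in DKO against E2f8 KO, 1 in Rb KO against WT and 1 in the interaction. Signs turned for Perp (0.043) and Xpc (0.07) in E2f8 KO against WT, for Rps27l (-0.083) and Xpc (0.23) in DKO against WT, and for Apaf1 (-0.12), Pml (0.39), Rps27l (-0.26) and Xpc (0.17) in DKO against Rb KO. With Rb KO replicate 1 left out as well, an alternative chosen after seeing the data like the omission of both replicates 3, the counts were 1, 2, 0, 4, 0 and 1 in the same order and Pml turned to 0.35. The slope comes from few arrays within groups, and the cause of these changes was not tested.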
